A study of Mus musculus with 30 samples.

Results

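The genes described here are 44 genes of DNA replication and of deoxynucleotide synthesis, followed in mouse neurospheres under 3 growth factor conditions. They were chosen by name, and every probe set on the arrays MOE430A and MOE430B that the platform tables assign to exactly 1 of them was taken, which gave 97 of 45265 probe sets (78 and 19 per array type). All 44 genes were among the 13882 tested, and in 37 of them no sample's signal fell below its array's median. Neurospheres are floating clusters of neural precursors, here started from the basal ganglia of embryonic day 14 mice and grown for 7 days. The PDGF condition (6 RNA samples) held PDGF-AA, the ligand of Pdgfra, and cells of the anterior entopeduncular area. The PDGF with NT-3 condition (3 samples) held neurotrophin-3 (NT-3) beside PDGF-AA, with precursors of the same area. The EGF condition (6 samples) held EGF, the ligand of Egfr, and cells of the medial and lateral ganglionic eminences, so factor and brain region cannot be told apart when it is compared with PDGF. For the EGF samples the labels conflict, since PDGF-AA stands in their growth protocol and EGF in all other fields, and EGF was followed. The sources used here name neither strain and sex nor the number of embryos behind a sample. Nothing says that the replicates were separate cultures, so p-values measure only the spread between these samples, which may be technical.

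Replication starts when the origin recognition complex, with Cdc6 and Cdt1, loads the MCM ring of helicase subunits onto DNA, a step called licensing. The ring is then activated with Cdc45 and the GINS complex, polymerases copy both strands while held by the Pcna clamp, and the fragments of the lagging strand are joined. Many of these genes are known targets of E2F factors and are transcribed as cells enter S phase. In these bulk samples more cycling cells and more RNA per cell cannot be told apart.

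Each value below is a probe set signal, and differences are log2 of signal plus a pseudocount, fitted with limma over all genes, with SE and Benjamini-Hochberg adjusted p. A gene is called higher or lower at an adjusted p under 0.05. One probe set stands for each gene, 40 on MOE430A and 4 on MOE430B (Orc1, Gins2, Gins3 and Tyms). The comparisons of EGF and of NT-3 with PDGF use the same 6 PDGF samples and so are not independent of each other.

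With EGF, 10 of the 44 genes were higher than with PDGF and 0 lower. These are 22.7% of the genes, beside 6.50% of all genes tested that were higher and 6.52% that were lower. The median difference was 0.18 on the log2 scale, beside -0.04 for all genes, and 32 of 44 differences were positive (72.7%, against 46.0% of all genes), with every EGF sample below every PDGF sample in 0 genes (4.12% of all genes). With NT-3 added to PDGF, 18 genes were higher and 0 lower, or 40.9%, beside 7.43% of all genes higher and 13.8% lower. Pole passed the filter on low signals only through its NT-3 samples, and without it 17 of 43 genes were higher with NT-3. Over all 44 members, Pole included, the median difference was 0.48, beside -0.13 for all genes tested. Of these differences 39 were positive, or 88.6% against 42.0% of all genes. In 20 genes, Pole among them, every NT-3 sample lay above every PDGF sample, beside 8.28% of all genes. For EGF this held in 6 genes, beside 4.50% of all genes. No p under the threshold was reached in either comparison by 23 genes.

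**Figure D1:**
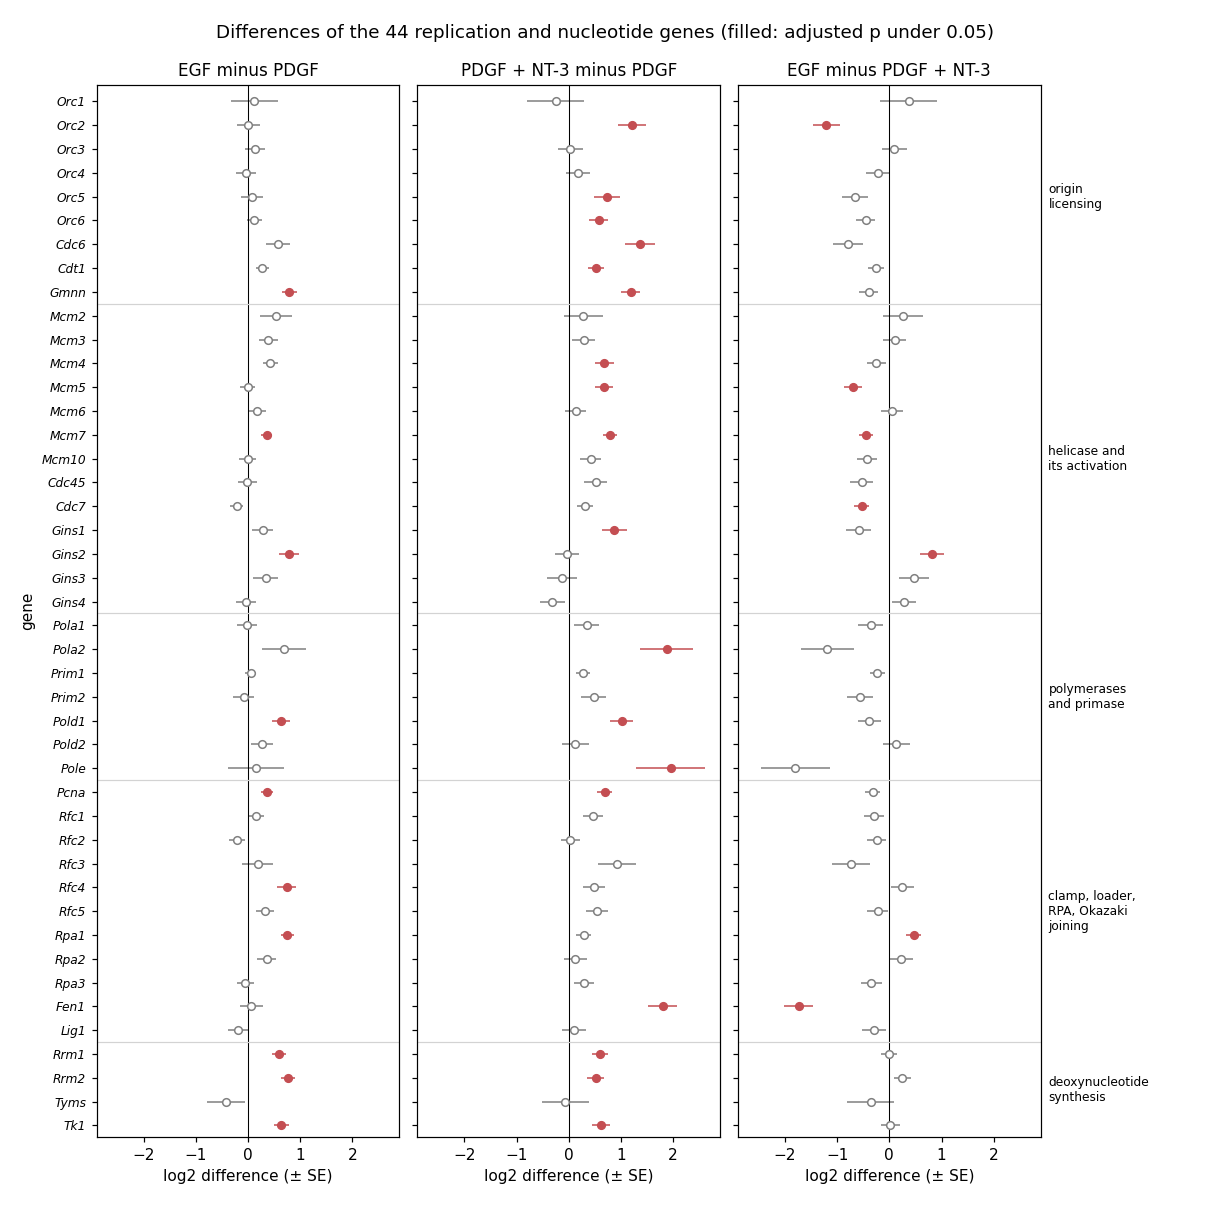
Log2 difference (± SE, horizontal axis) of the 44 genes (vertical axis, grouped by role) in the 3 comparisons, with filled points at an adjusted p under 0.05. Filled points lie right of 0 for 10 genes with EGF and 18 with NT-3, and in EGF against PDGF with NT-3 for 2 genes to the right and 5 to the left.

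EGF and PDGF with NT-3 were set against each other directly to test where the conditions differ. Factor, brain region and hybridisation run differ together between them and cannot be told apart. Of the 44 genes, 2 were higher with EGF (Gins2 and Rpa1) and 5 were lower (Fen1, Orc2, Mcm5, Cdc7 and Mcm7). Across all genes tested 14.1% were higher and 8.35% lower in this comparison, beside 4.55% and 11.4% of the members. The median over the members was -0.30, beside 0.11 for all genes, and 14 differences were positive (31.8%, against 56.7% of all genes). In 12 genes, Pole among them, every EGF sample lay below every NT-3 sample, beside 9.14% of all genes, and in 2 above, beside 12.5%.

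Averaged over the 44 genes, Pole included, each sample's level relative to the PDGF mean ran from -0.19 to 0.19 in the PDGF samples. It was 0.20 to 0.29 in the EGF samples and 0.57, 0.42 and 0.62 in the NT-3 samples. The conditions did not overlap in this mean, although the lowest EGF sample lay just above the highest PDGF sample. In the median over the same genes they did overlap. There PDGF replicate 6 (0.2012) lay above EGF replicate 5 (0.1975), and EGF replicate 4 (0.3952) above NT-3 replicate 2 (0.3767). Of the 44 genes, 16 to 18 lay above all PDGF samples in each EGF sample, and 31, 23 and 31 in the NT-3 samples. The share of all genes tested was not computed for these counts, so they have no background to be read against.

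**Figure D2:**
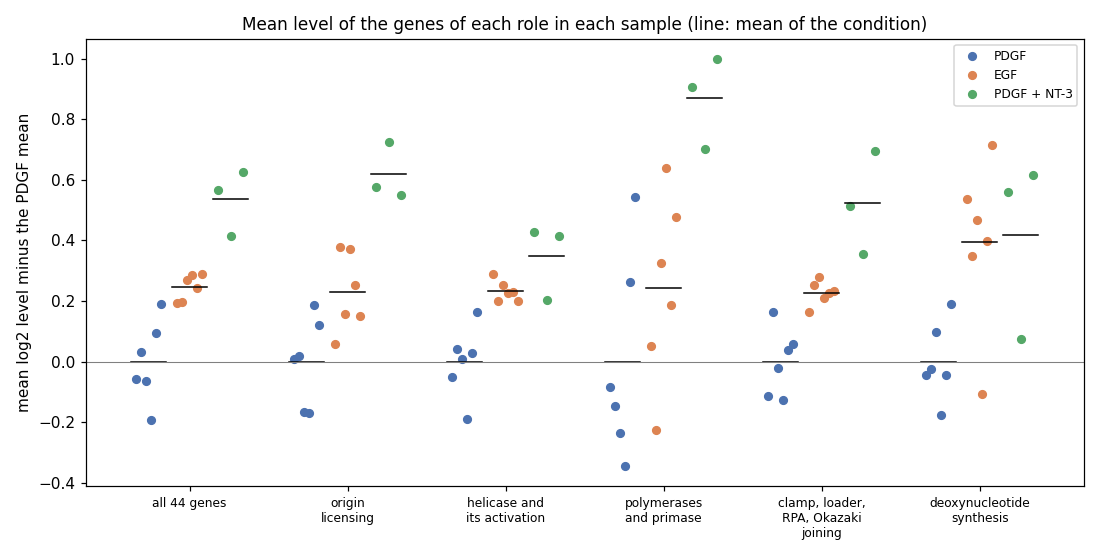
Mean log2 level of the genes of each role in each sample, minus the mean of the PDGF samples (vertical axis), with a line at the mean of each condition. The NT-3 samples (0.42 to 0.62 over all 44 genes) lie above the EGF samples (0.20 to 0.29) over all genes. They also do so in origin licensing and in the role of the clamp and its loader. In polymerases and primase the gap is narrow (EGF replicate 4 at 0.64, NT-3 replicate 2 at 0.70). That role counts Pole, which had to be high with NT-3, so its separation is no support. In the helicase role and in deoxynucleotide synthesis both conditions overlap.

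Of the 9 genes of origin licensing, 6 were higher with NT-3 and 0 lower. Orc2, Orc5 and Orc6, which are subunits of the origin recognition complex, were higher by 1.21 ± 0.26, 0.73 ± 0.25 and 0.58 ± 0.18. Orc5 and Orc6 were near the threshold (adjusted p = 0.049 and 0.032) and lost their calls in 7 and 6 of 9 fits that left out 1 sample, which include those without any single NT-3 sample. Orc1, Orc3 and Orc4 did not pass, with differences of -0.25, 0.03 and 0.18. With EGF only Gmnn passed in this role, and the ORC genes lay between -0.04 and 0.13.

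Cdc6, which brings the helicase ring to the origin complex, had a signal of 339 at the lowest, 525 at the median and 832 at the highest of the PDGF samples. In the EGF samples these were 579, 857 and 932, and the NT-3 samples gave 1675, 1237 and 1437. All NT-3 samples lay above all samples of the other conditions, while EGF and PDGF overlapped. The difference was 1.36 ± 0.29 with NT-3 (adjusted p = 0.0032, 2.58-fold) and 0.58 ± 0.23 with EGF (adjusted p = 0.13). EGF against NT-3 gave -0.79 ± 0.29 (adjusted p = 0.057). Cdt1, the partner of Cdc6 in loading, was higher with NT-3 by 0.53 ± 0.16 and did not pass with EGF (0.27 ± 0.13).

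Gmnn, or geminin, the protein that binds and inhibits Cdt1, was higher under both conditions. Its signals ran from 2343 over a median of 2654 to 3050 with PDGF, and from 3377 over 5015 to 5856 with EGF. With NT-3 they were 5497, 7264 and 5670. Every EGF and every NT-3 sample lay above every PDGF sample. The differences were 0.79 ± 0.15 with EGF (adjusted p = 0.0012) and 1.19 ± 0.18 with NT-3 (adjusted p = 0.00037), and EGF against NT-3 did not pass (-0.39 ± 0.18, adjusted p = 0.13).

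Orc2 separated the NT-3 samples from both other conditions. It measured 611, 1206 and 1425 (lowest, median, highest) with PDGF, and 772.5, 1109 and 1535 with EGF. With NT-3 it was 2628, 2658 and 2484. EGF against NT-3 gave -1.21 ± 0.26 (adjusted p = 0.0034). The other probe sets of Orc2 did not pass with NT-3, at 0.69 and -0.16, and the mean over its probe sets gave 0.58 (adjusted p = 0.14).

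In the helicase role, 2 of 13 genes were higher with EGF (Mcm7 and Gins2) and 4 with NT-3 (Mcm4, Mcm5, Mcm7 and Gins1), with 0 lower. Mcm7, a subunit of the ring, had PDGF signals from 14294 over 15997 to 19730 and EGF signals from 19609 over 20150 to 22671. Its NT-3 signals were 31088, 22037 and 32820. Only 1 PDGF sample, replicate 6, reached into the EGF range, and all NT-3 samples lay above all PDGF samples. The differences were 0.36 ± 0.11 with EGF (adjusted p = 0.037) and 0.80 ± 0.13 with NT-3 (adjusted p = 0.00069). The call with EGF was lost in 9 of 12 fits that left out 1 sample and with the replicate block (adjusted p = 0.055). Its level with EGF was also below that with NT-3 (-0.44 ± 0.13, adjusted p = 0.023).

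Mcm5, a further subunit of the ring, was higher with NT-3 than with PDGF or EGF. Signals were 1488, 1965 and 2530 (lowest, median, highest) with PDGF, 1842.5, 1907 and 2233 with EGF, and 2732, 3149 and 3829 with NT-3. All NT-3 samples were above the rest. The difference was 0.68 ± 0.17 with NT-3 (adjusted p = 0.010) and -0.01 ± 0.14 with EGF. EGF against NT-3 gave -0.69 ± 0.17 (adjusted p = 0.0082). A further probe set of Mcm5, on MOE430B, was higher in both comparisons with PDGF, by 0.54 with EGF and 1.35 with NT-3. It is an _x_at probe set, of the kind that can bind other transcripts. The other one on MOE430B did not pass, at 0.05 with EGF (adjusted p = 0.95) and 0.16 with NT-3 (adjusted p = 0.75).

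Mcm2 and Mcm6, both subunits of the same ring, did not pass on the probe sets that stood for them. Mcm2 ran from 3009 over 4938 to 7276 with PDGF and from 3349 over 8807 to 10552 with EGF, and was 5028, 5482 and 6622 with NT-3. Among its EGF samples 4 lay between 7176 and 10552 and the others at 3349 and 3581, so the condition was split. Mcm6 ran from 2106 over 2721 to 3214 with PDGF and from 2371 over 2788 to 4215 with EGF, and was 3535, 2265 and 3014 with NT-3. All conditions overlapped for both genes. Mcm4 was higher with NT-3 (0.68 ± 0.18), but gave 0.27 without _x_at and _s_at probe sets (adjusted p = 0.43), and Mcm3 did not pass (0.39 with EGF, 0.29 with NT-3).

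The GINS genes, whose 4 products join the ring when it is activated, went separate ways. Gins2 measured 3086, 4584 and 7851 (lowest, median, highest) with PDGF, 6538, 7872 and 11061 with EGF, and 5608, 4955 and 3674 with NT-3. All EGF samples lay above all NT-3 samples, and 1 PDGF sample overlapped with EGF. It was higher with EGF than with PDGF by 0.78 ± 0.19 (adjusted p = 0.0087) and than with NT-3 by 0.81 ± 0.23 (adjusted p = 0.018). Gins1 was higher with NT-3 by 0.87 ± 0.24, and Gins3 (0.34 with EGF, -0.12 with NT-3) and Gins4 (-0.04 and -0.32) passed in neither. A further probe set of Gins2 gave 0.76 with EGF and 1.20 with NT-3, neither past the threshold, so the order of EGF and NT-3 for Gins2 depended on the probe set.

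On the probe sets that stood for them, Mcm10 (-0.01 with EGF, 0.42 with NT-3), Cdc45 (-0.01 and 0.52) and Cdc7 (-0.22 and 0.32) passed in neither comparison with PDGF. Cdc7, the catalytic subunit of the kinase that phosphorylates the ring, ran from 2420 over 2600.5 to 3132 with PDGF and from 1924 over 2319 to 2673 with EGF. It was 3719, 3118 and 3215 with NT-3. All EGF samples lay below all NT-3 samples, with the PDGF samples between and overlapping both. The direct difference was -0.53 ± 0.15 (adjusted p = 0.017), while a further probe set of Cdc7 was lower with NT-3 than with PDGF (-1.56).

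**Figure D3:**
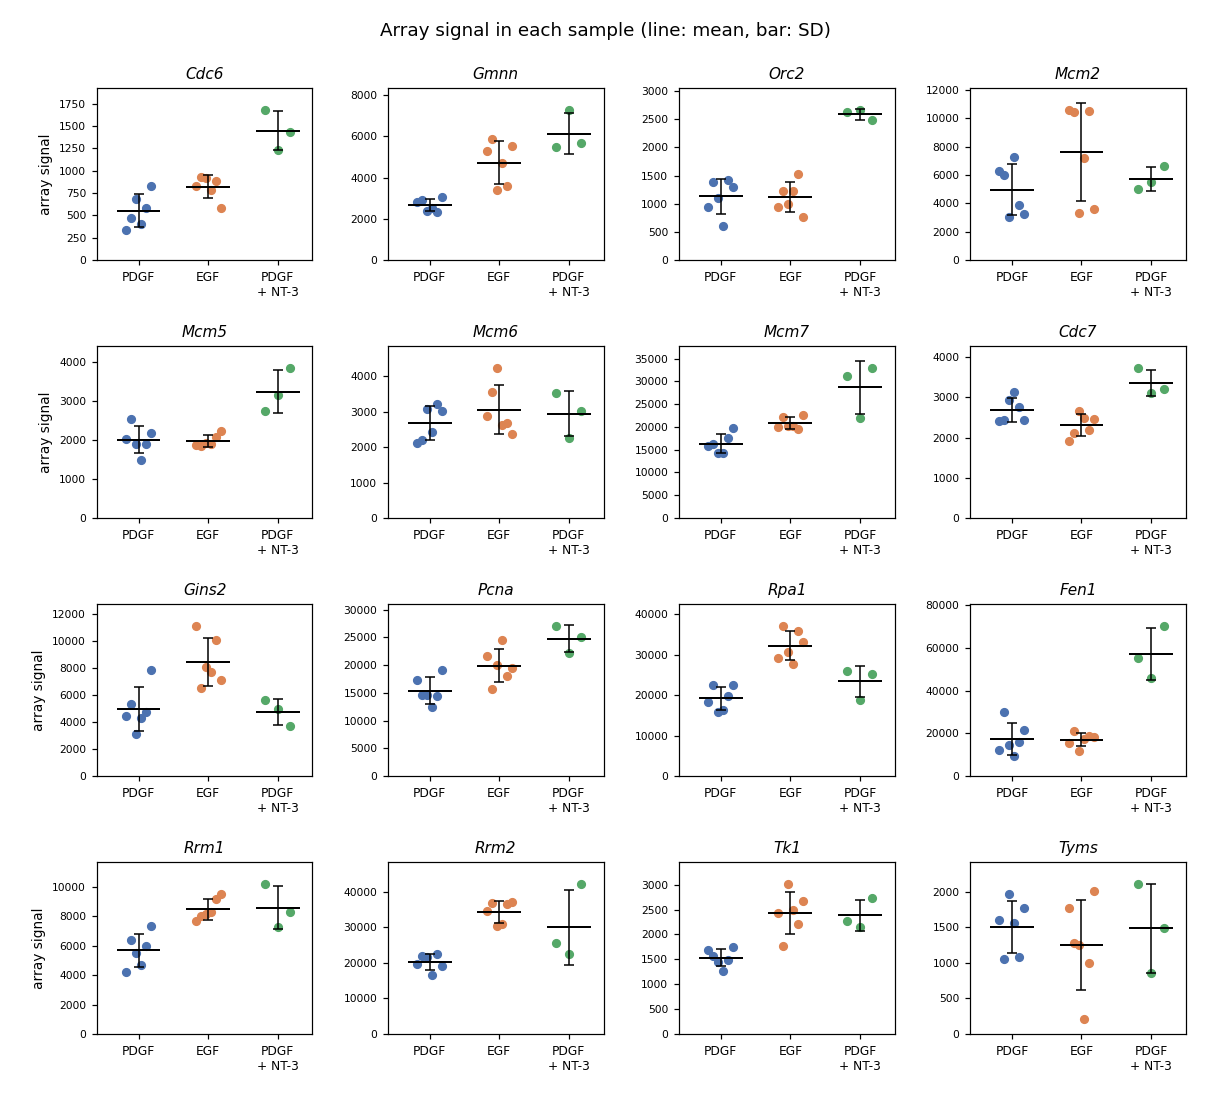
Array signal (vertical axis, from 0) of 16 genes in each PDGF, EGF and PDGF with NT-3 sample, with the mean (line) and SD (bar) of each condition. The NT-3 samples lie above all others for Cdc6, Orc2, Mcm5 and Fen1, the EGF samples lie above all others for Rpa1, and the conditions overlap for Mcm2, Mcm6 and Tyms.

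Promoter sequences are shown for genes of the licensing, helicase, polymerase and nucleotide roles, to set the letters known for E2F beside the measured changes. The windows hold 250 bases before and 50 after the start of the gene, from RefSeq on GRCm38.p6, on the gene's strand. Of the 44 genes, 36 matched a window by symbol, and Gmnn, Mcm4, Gins1, Gins2, Gins4, Prim2, Pole and Rfc2 did not. Capitals mark the E2F letters TTTCCCGC, TTTGGCGC, TTTCGCGC and TTTGCCGC, searched on both strands.
Cdc6, chr11:98907901-98908200, + strand: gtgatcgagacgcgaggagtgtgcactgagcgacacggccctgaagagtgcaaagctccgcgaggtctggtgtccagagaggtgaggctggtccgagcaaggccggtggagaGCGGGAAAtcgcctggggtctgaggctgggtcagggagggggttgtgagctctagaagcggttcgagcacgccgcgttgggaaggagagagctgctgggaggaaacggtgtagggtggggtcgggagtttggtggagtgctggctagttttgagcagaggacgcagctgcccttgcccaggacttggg
Mcm5, chr8:75109259-75109558, + strand: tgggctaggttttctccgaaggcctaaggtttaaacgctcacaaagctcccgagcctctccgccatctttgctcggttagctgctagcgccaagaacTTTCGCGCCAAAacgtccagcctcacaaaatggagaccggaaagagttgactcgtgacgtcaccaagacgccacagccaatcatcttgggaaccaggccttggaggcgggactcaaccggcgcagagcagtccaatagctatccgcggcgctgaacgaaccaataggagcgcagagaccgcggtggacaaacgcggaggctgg
Mcm6, chr1:128359656-128359955, - strand: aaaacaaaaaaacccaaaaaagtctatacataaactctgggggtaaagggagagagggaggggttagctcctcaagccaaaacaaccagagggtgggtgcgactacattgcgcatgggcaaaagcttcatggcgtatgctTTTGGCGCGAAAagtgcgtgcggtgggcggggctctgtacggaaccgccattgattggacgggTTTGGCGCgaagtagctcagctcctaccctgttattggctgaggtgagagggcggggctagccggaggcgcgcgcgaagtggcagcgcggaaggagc
Mcm7, chr5:138171834-138172133, - strand: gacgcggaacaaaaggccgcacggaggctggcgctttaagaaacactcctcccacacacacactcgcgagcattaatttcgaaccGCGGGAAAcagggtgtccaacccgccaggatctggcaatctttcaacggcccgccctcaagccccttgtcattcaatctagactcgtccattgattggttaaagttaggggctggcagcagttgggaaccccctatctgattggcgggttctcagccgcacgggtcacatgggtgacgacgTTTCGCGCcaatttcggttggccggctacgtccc
Pold1, chr7:44548766-44549065, - strand: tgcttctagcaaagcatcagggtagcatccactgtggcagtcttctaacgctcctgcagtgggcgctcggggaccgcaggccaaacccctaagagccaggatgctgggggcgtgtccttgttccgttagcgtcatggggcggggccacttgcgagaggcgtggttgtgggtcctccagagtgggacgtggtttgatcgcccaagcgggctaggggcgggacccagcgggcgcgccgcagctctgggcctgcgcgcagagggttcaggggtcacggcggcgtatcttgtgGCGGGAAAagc
Rrm2, chr12:24708004-24708303, + strand: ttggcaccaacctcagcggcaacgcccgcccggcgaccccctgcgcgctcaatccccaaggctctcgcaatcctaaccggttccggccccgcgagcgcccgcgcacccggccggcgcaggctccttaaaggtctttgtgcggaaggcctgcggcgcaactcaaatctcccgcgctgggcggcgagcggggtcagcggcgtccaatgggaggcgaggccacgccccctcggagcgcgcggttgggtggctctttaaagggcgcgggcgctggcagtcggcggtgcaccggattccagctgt

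In Cdc6 the letters GCGGGAAA, the opposite strand of TTTCCCGC, begin at position -138 from the start. Mcm5 holds a pair that overlap, at -153 and -149, and Mcm6 holds a similar pair at -110 and -106 and a further match at -47. Mcm7, one of whose windows is printed, has matches at -165 and 17, and Pold1 has one at 40, after the start. The printed window of Rrm2 has 0 matches, although all probe sets of that gene were higher in both comparisons with PDGF, and this says only that these letters are not in it. Over the members, 13 of 36 had at least 1 match (36.1%), beside 4.33% of the 11136 genes tested that have a window and 2.60% of all 27025 genes in the table. The share was 35.7% in the 14 members higher with NT-3 and 36.4% in the 22 that were not, and 25.0% in the 8 higher with EGF and 39.3% in the 28 that were not. The letters CCAAT were in 63.9% of the members and 42.3% of the genes tested, and the letters TTTGAA of the cell cycle homology region were in 16.7% and 14.6%. A match is a description of the letters and not a bound site.

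Among polymerases and primase, 1 of 7 genes was higher with EGF and 3 with NT-3, with 0 lower, and without Pole 2 of 6 were higher with NT-3. Pold1, the catalytic subunit of the lagging strand polymerase delta, ran from 1216 over 1371 to 1619 with PDGF and from 1602 over 2274 to 2694 with EGF. With NT-3 it was 3399, 1903 and 3611. Only 1 PDGF sample reached the lowest EGF sample, and no NT-3 sample overlapped with PDGF. The differences were 0.63 ± 0.18 with EGF and 1.02 ± 0.22 with NT-3. They rest on an _x_at probe set, and a further probe set of Pold1 gave 0.30 (adjusted p = 0.37) and 0.40 (adjusted p = 0.22).

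Pola2, a subunit of the polymerase that makes primers together with primase, and Pole, the catalytic subunit of the leading strand polymerase, differed with NT-3 by 1.88 ± 0.51 and 1.96 ± 0.66. Both had low signals with PDGF. Pola2 ran from 162 over 376 to 1182 with PDGF and was 1264, 1438 and 2013 with NT-3. Pole ran from 58.6 over 198 to 718 and was 917, 870.5 and 1277. The NT-3 samples lay above all PDGF samples for both genes. Having passed the filter only through its NT-3 samples, Pole had to be high there, and its adjusted p of 0.044 is no support. A further probe set of Pola2 gave -0.17 (adjusted p = 0.90), and the mean over its probe sets gave 0.85 (adjusted p = 0.30), which ended the call. Prim1, Prim2, Pola1 and Pold2 did not pass, at 0.28, 0.48, 0.35 and 0.13.

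The clamp, its loader, the single-strand binding proteins and the joining enzymes form the fourth role, with 3 of 11 genes higher with EGF and 2 with NT-3. Pcna, the sliding clamp, ran from 12477 over 14573 to 19074 with PDGF and from 15745 over 19712 to 24481 with EGF. With NT-3 it was 26970, 22125 and 25137. NT-3 and PDGF samples did not overlap, while EGF overlapped with both. Pcna was higher by 0.69 ± 0.15 with NT-3 (adjusted p = 0.0034). The difference of 0.37 ± 0.12 with EGF was at the threshold (adjusted p = 0.0498, and 0.060 when adjusted over probe sets), and the call was lost in 9 of 12 fits that left out 1 sample.

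Rpa1, the large subunit of the protein that coats single-stranded DNA, was highest with EGF. It measured 15860, 19048 and 22452 (lowest, median, highest) with PDGF, 27714, 31970 and 37025 with EGF, and 26038, 18935 and 25247 with NT-3. Every EGF sample lay above every sample of the other conditions. The difference was 0.75 ± 0.12 from PDGF (adjusted p = 0.00025) and 0.47 ± 0.14 from NT-3 (adjusted p = 0.026). Rpa2 and Rpa3, the smaller subunits, did not pass in either comparison with PDGF (0.36 and -0.05 with EGF, 0.13 and 0.29 with NT-3). Rfc4, a clamp loader subunit, was higher with EGF by 0.74 ± 0.18 on an _s_at probe set. A further probe set of Rfc4 gave 0.45 (adjusted p = 0.48), and the mean over its probe sets gave 0.59 (adjusted p = 0.094), which ended the call. Rfc1, Rfc2, Rfc3 and Rfc5 passed in neither on the probe sets that stood for them, at 0.16, -0.21, 0.19 and 0.32 with EGF and 0.46, 0.03, 0.93 and 0.55 with NT-3.

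Fen1, the nuclease that trims flaps from lagging strand fragments, had the second smallest adjusted p of the members with NT-3. It ran from 9163 over 15233 to 30091 with PDGF and from 11600 over 17801 to 20958 with EGF, and was 55089, 45971 and 70121 with NT-3. The NT-3 samples lay above all others, which overlapped. The difference was 1.81 ± 0.28 from PDGF (adjusted p = 0.00039) and EGF against NT-3 gave -1.74 ± 0.28 (adjusted p = 0.00027). Its probe set is of the kind that can bind other transcripts (_x_at), and a further probe set of Fen1 gave 0.71 with NT-3 (adjusted p = 0.18). Lig1, the ligase that seals the fragments, did not pass (-0.20 with EGF and 0.09 with NT-3).

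In deoxynucleotide synthesis the median difference of the 4 genes was 0.61 for EGF and 0.56 for NT-3, and 0 of 4 passed between EGF and NT-3. In each comparison with PDGF 3 of 4 genes were higher. Rrm2, the regulated subunit of ribonucleotide reductase, ran from 16732 over 20591 to 22597 with PDGF and from 30361 over 35680 to 37278 with EGF. With NT-3 it was 25492, 22428 and 42128. All EGF samples lay above all PDGF samples, while NT-3 replicate 2 lay within the PDGF range. The difference was 0.77 ± 0.13 with EGF (adjusted p = 0.00061) and 0.52 ± 0.16 with NT-3 (adjusted p = 0.030). Without NT-3 replicate 3 the latter was 0.24 (adjusted p = 0.23), and with quantile normalization 0.29 (adjusted p = 0.16), both of which ended the call. All 3 probe sets of Rrm2 were higher in both comparisons, the others by 1.04 and 1.14 with EGF and by 1.03 and 1.42 with NT-3.

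Rrm1, the large subunit of the reductase, ran from 4208 over 5739 to 7340 with PDGF and from 7679 over 8218 to 9484 with EGF, and was 10153, 7273 and 8305 with NT-3. Only NT-3 replicate 2 fell into the PDGF range. Rrm1 was higher by 0.59 ± 0.13 with EGF (adjusted p = 0.0046) and by 0.60 ± 0.16 with NT-3 (adjusted p = 0.014). A further probe set of Rrm1 gave 0.19 with EGF (adjusted p = 0.69) and 0.42 with NT-3 (adjusted p = 0.27). The mean over its probe sets gave 0.39 with EGF (adjusted p = 0.069), which ended that call. Tk1, the kinase that salvages thymidine, ran from 1267 over 1531 to 1738 with PDGF and from 1766 over 2461 to 3004 with EGF, and was 2278, 2142 and 2734 with NT-3. Both conditions lay above all PDGF samples, by 0.64 ± 0.15 (adjusted p = 0.0065) and 0.62 ± 0.18 (adjusted p = 0.021).

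Tyms, the enzyme that makes thymidylate from deoxyuridylate, was not called. It ran from 1060.5 over 1582 to 1971 with PDGF and from 208 over 1264 to 2013 with EGF, and was 2102, 860 and 1490 with NT-3. The conditions overlapped fully. The 3 probe sets of Tyms on MOE430A did not pass the filter on low signals, so its value rests on 1 probe set of MOE430B.

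Several probe sets that passed the filter were available for 28 of the 44 genes, and they did not always move alike. Over all 87 member probe sets, 14 were higher and 0 lower with EGF, beside 5.64% and 5.09% of all probe sets. With NT-3 29 were higher and 4 lower, beside 7.31% and 11.8%. Those 29 hold the probe set of Pole and a further one of Gins1, which passed the filter only through their NT-3 samples. The one of Gins1 averaged 188 with PDGF and 288 with EGF, under the MOE430B array medians of 818 to 933, and 1676 with NT-3. Both had to be high with NT-3, so their calls are no support. The probe sets lower with NT-3 than with PDGF were further ones of Mcm3 (-1.84), Cdc7 (-1.56), Pola1 (-1.44) and Prim2 (-1.83), and none of them stood for its gene. Between EGF and NT-3, 4 probe sets were higher and 10 lower, beside 12.3% and 7.90% of all probe sets. The 10 lower include the same probe set of Gins1 (-2.21), which is no support here either. Of the 10 genes higher with EGF, 7 had further probe sets, all 10 of which were positive and 2 past the threshold, both of Rrm2. Of the 18 higher with NT-3, 11 had 16 further probe sets, of which 14 were positive and 7 past the threshold. These 7 include that further probe set of Gins1, whose call is no support. All 4 probe sets of Mcm7 were higher with NT-3, by 0.71 to 1.21. Conversely, further probe sets of Mcm2 (0.90), Mcm6 (0.80), Mcm10 (1.67), Cdc45 (1.73) and Prim1 (1.05) were higher with NT-3 although their genes were not called. With EGF the same held for a further probe set each of Mcm10 (1.46), Mcm5 (0.54) and Rfc2 (0.61).

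**Figure D4:**
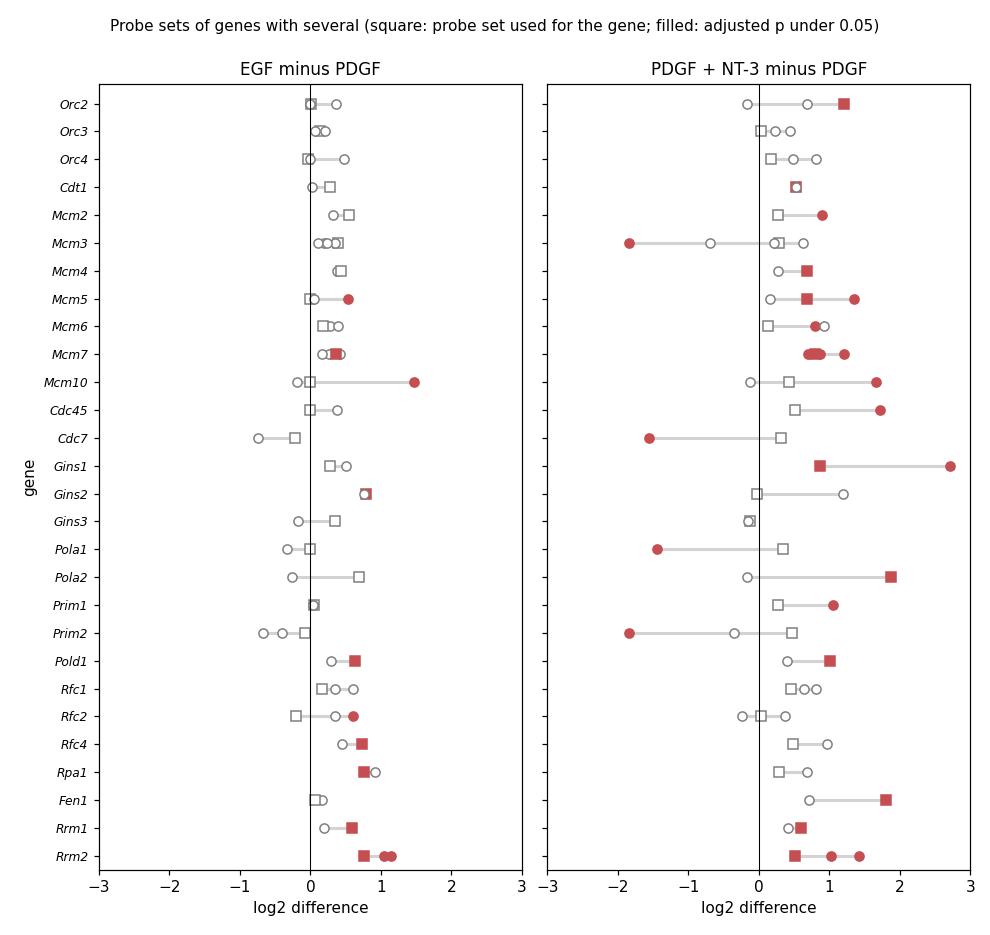
Log2 difference (horizontal axis) of every probe set that passed the filter, for the 28 genes with several (vertical axis), with squares for the probe set that stood for the gene and filled marks at an adjusted p under 0.05 over all probe sets. With NT-3 the probe sets of Mcm7 and Rrm2 are all filled on the right, whereas 1 each of Mcm3, Cdc7, Pola1 and Prim2 is filled on the left.

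Of 48 other replication genes listed beside the members, 44 were tested. With EGF 5 were higher and 0 lower, with a median of 0.18, and with NT-3 15 were higher and 2 lower, with a median of 0.46. Dtymk, the kinase that acts on thymidylate, was higher with EGF (0.62 ± 0.17). Dnmt1, the maintenance DNA methyltransferase, Dscc1, a subunit of an alternative clamp loader, and Umps, an enzyme of pyrimidine synthesis, were higher with NT-3 by 1.25 ± 0.19, 1.88 ± 0.36 and 0.83 ± 0.16. The 2 lower with NT-3 were Cad, a further enzyme of pyrimidine synthesis (-1.28 ± 0.28), and Exo1 (-0.98 ± 0.29). Of 19 mitosis genes tested (of 20), 5 were higher with EGF and 8 with NT-3, with 0 lower, and Bub1b, a spindle checkpoint kinase, was higher in both (0.84 ± 0.16 and 1.05 ± 0.20). Of all genes tested, 6.50% were higher and 6.52% lower with EGF, and 7.43% and 13.8% with NT-3. A list of 17 genes held the E2F and Rb families and also Ccne1, Ccne2, Ccna2 and Cdk2, which belong to neither. In it, 4 were higher with EGF and 0 lower, and 5 were higher and 2 lower with NT-3. With EGF the smallest p-values were those of Tfdp2, a partner of E2F (0.74 ± 0.13), E2f5, a repressor (0.83 ± 0.17), Rbl1 (0.58 ± 0.16) and E2f1, an activator (0.65 ± 0.20), all higher. With NT-3 the partner Tfdp1 (0.70 ± 0.15) and E2f3 (0.81 ± 0.17) were higher, while E2f4, a repressor (-1.45 ± 0.32), and Tfdp2 (-0.62 ± 0.16) were lower.

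The 5 genes outside the list whose pattern over the 15 samples was most like the mean of the members were Pou3f3 (Pearson r = 0.963), Ube2c (0.963), Vrk1 (0.941), Cks2 (0.933) and Mbd3 (0.923). The samples share their conditions and arrays, so r is a description. Within the members, Mcm7 followed the mean of the others most closely (r = 0.959), then Cdc6 (0.874) and Pcna (0.874). Ube2c, a ubiquitin-conjugating enzyme of mitosis, had mean signals of 2554 with PDGF, 3380 with EGF and 5164 with NT-3.

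Markers of the cultures were read beside these results. Of 9 neural precursor genes tested (of 10), 1 was higher and 3 lower with EGF, and 3 were higher and 2 lower with NT-3. Their summed signal was 64824 to 74282 with PDGF, 43778 to 53297 with EGF and 89299 to 94190 with NT-3. Pdgfra averaged 10992 with PDGF, 979 with EGF and 18608 with NT-3, and Egfr 4348, 3334 and 1388. Nes rose with EGF (0.67) and fell with NT-3 (-0.85), Vim rose with NT-3 (0.91), and Sox10 (-2.96) and Cspg4 (-2.14) fell with EGF. Sox2 and Olig2 did not pass in any comparison, with means of 10878 to 13404 and 5818 to 6472.

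Of 7 genes of maturing oligodendrocytes tested (of 9), 5 were lower with NT-3 and 0 higher, and 2 were higher and 1 lower with EGF. Their summed signal was 42932 to 77087 with PDGF, 47542 to 77398 with EGF and 14011 to 19056 with NT-3, with 4 of 7 below the array's median in each NT-3 sample. Mbp, a myelin protein, fell from 21697 to 803. Of 10 genes of postmitotic neurons, 8 were lower with EGF and 6 with NT-3, and their summed signal was 77906 to 121280 with PDGF, 29547 to 57365 with EGF and 44676 to 82793 with NT-3. Of 8 astrocyte genes 5 were higher and 1 lower with EGF, and 2 were higher and 1 lower with NT-3. Their summed signal was 11332 to 14762 with PDGF, 36601 to 51441 with EGF and 16753 to 20380 with NT-3, without overlap. Only 4 of the 8 differences were positive with NT-3, and 3 to 5 of the genes lay below the array's median in the NT-3 samples.

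Of 8 endothelial and mural markers 3 were tested, with summed signals of 2332 to 5115 with PDGF, 7066 to 12126 with EGF and 1141 to 2717 with NT-3. Acta2 alone was called with EGF (higher, 1.99) and Kdr alone with NT-3 (lower, -1.54). Of 8 microglia markers 2 were tested, with summed signals of 859 to 2171, 1294 to 1730 and 788 to 994, and Csf1r was lower with NT-3 (-1.23). The part of these shifts in markers in the higher replication genes was not tested.

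Technical measures also moved with NT-3. The control probe sets of Actb at the 3' end, set against those at the 5' end on MOE430A as a log2 ratio, had a median of 3.62 with NT-3 (3.21 to 3.71), 3.04 with PDGF (2.59 to 3.27) and 3.02 with EGF (2.42 to 3.42). For Gapdh on MOE430B the NT-3 samples, at 4.10 to 4.21, lay above all PDGF samples (3.28 to 3.97) and all EGF samples (3.47 to 3.81). The labelled RNA concentrations were 192, 287 and 171 ng per ul for the NT-3 samples and 100 for all others. The 3 NT-3 samples shared 0 hybridisation fluidics runs with the other samples, so run and NT-3 cannot be told apart, and the part of RNA quality was not tested. NT-3 replicates 1 and 2 shared a run, and replicate 3 was alone in another. EGF and PDGF shared 3 runs with 2 samples each per condition. With the run as a block, 9 members were higher with EGF. Within the runs the median differences of the members were 0.19, 0.41 and 0.06, and 0, 0 and 1 members were higher, beside 0.519%, 0.562% and 1.20% of all genes.

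The calls depended in part on single samples and probe sets. Without NT-3 replicate 3, 9 genes in place of 18 were higher with NT-3, and Orc5, Orc6, Cdt1, Mcm4, Mcm5, Pola2, Pole, Rrm2 and Tk1 lost their calls. That replicate was the only sample of its fluidics run, so sample and run cannot be told apart. Without NT-3 replicate 1 the calls of Rrm1, Cdt1, Mcm4, Orc5, Orc6 and Pole were lost, and without replicate 2 those of Gins1, Orc5, Orc6 and Pole. Without NT-3 replicate 1 or 3, 3 genes in place of 5 were lower with EGF than with NT-3. In place of 10, 5 genes were higher with EGF when probe sets with names ending in _x_at or _s_at were left out, and 6 when the probe sets of a gene were averaged. Gmnn, Rpa1, Rrm2 and Tk1 stayed higher with EGF, and Cdc6, Gmnn, Mcm7 and Pcna with NT-3, in all 24 and 20 alternative settings over whole conditions in which they were tested. None of the 7 calls between EGF and NT-3 did so in all of theirs. Gmnn, Tk1, Cdc6 and Pcna have no further probe set. Averaging probe sets, or leaving out those ending in _x_at or _s_at, could therefore not change their differences.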

How the data were processed

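RNA of 15 neurosphere samples was hybridised to 30 Affymetrix arrays, a MOE430A and a MOE430B for each sample. Each deposited value is the intensity of a probe set on a linear scale. The submitters' processing notes name MAS5 without a version. The trimmed mean of every array lay between 1500.2 and 1500.77, and this scaling was kept. A scaled signal has no read depth, and the number of arrays limits the precision.

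Probe sets that reached the median of their array on 3 or more of 15 arrays were kept. Each gene was represented by 1 probe set, from MOE430A where it had one, otherwise MOE430B, and among several the brightest. Signals were log2 transformed after adding the 10th percentile of the array type (52.0 and 115). One limma model (version 3.58.1, R 4.3.3) was fitted to all 13882 genes, with a trended prior variance and 12 residual degrees of freedom. The tests were two-sided, with Benjamini-Hochberg adjusted p-values over every gene tested in that comparison, and the model was tested on simulated data. Samples were not treated as paired. Figures and promoter searches used Python.

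The members, gene lists and tests were chosen with earlier results of these data known. Per sample values are given for the 5 members with the smallest adjusted p in each comparison and for Pcna, Mcm2, Mcm6, Cdc6, Rrm2 and Tyms. Pola2, Pole and Pold1 were added after their values were seen, as were the markers Nes, Vim, Sox10, Cspg4, Acta2, Kdr and Csf1r. Of other lists, at most 4 genes with the smallest adjusted p are named, and Cad and Exo1 were added after their values were seen. Alternatives were another centring, quantile normalization, pseudocounts, filters, the mean over probe sets, only the conditions compared, blocks for replicate and fluidics run, array weights, and each sample left out. Leaving out probe sets ending in _x_at or _s_at was chosen after seeing the data.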

Additional observations from a re-analysis of the deposited data

Results flagged for a closer look

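A sample stood far from the rest of its condition in 3 of 88 groups of 6 samples (3.41%), judged by its gap to the nearest sample over the range of the group. Chance alone marks about 1 in 20 groups. Gins4 measured 2578.6 in PDGF replicate 2, against 1304 to 1757 in the other PDGF samples. Prim2 measured 1260.6 in EGF replicate 4, against 674 to 889 in the other EGF samples, and neither gene was called in a comparison with PDGF. Rfc4 measured 2041 in EGF replicate 5, against 1643 to 1760 in the other EGF samples, all of which lay above every PDGF sample.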

How the results depend on the processing

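With each sample left out in turn, 7 to 10 members were higher with EGF than with PDGF, and 9 to 17 with NT-3, with 0 lower in either. The median of the members ran from 0.16 to 0.26 with EGF, 0.42 to 0.56 with NT-3 and -0.38 to -0.20 between EGF and NT-3. Between EGF and NT-3, 1 to 2 members were higher and 3 to 6 lower. Over member probe sets, 12 to 15 were higher with EGF, 16 to 27 higher and 0 to 3 lower with NT-3, and 2 to 5 higher and 6 to 11 lower between them. The lowest counts of members and probe sets higher with NT-3 came without NT-3 replicate 3. Deviations of EGF and PDGF samples with the same replicate number correlated weakly, at 0.02 to 0.11 over the 6 pairs. Of these pairs 1 exceeded 0.1, but 5 were best with their own number, so a weak pairing was not excluded. With the replicate block, 8 members were higher with EGF and 15 with NT-3, and 1 was higher and 6 lower between EGF and NT-3. The block left 2 member probe sets lower with NT-3 and 2 higher between EGF and NT-3. Median centring moved the median of all genes with NT-3 from -0.13 to -0.05. It gave a member median of 0.62, 1 other replication gene lower with NT-3 (4 with quantile normalization) and 1 member higher between EGF and NT-3. The filter at the 75th percentile replaced the probe set of Prim2 and gave 1 member lower with NT-3, Prim2 at -1.83. The mean over a gene's probe sets gave 6 members higher with EGF, 0 higher between EGF and NT-3, and Cdc7 at 0.14 there. With only the conditions compared, 8 members were lower between EGF and NT-3. Array weights gave 19 probe sets higher and 1 lower with NT-3, and 1 member and 1 probe set higher between EGF and NT-3. Without _x_at and _s_at probe sets, 5 members were higher with EGF and 1 between EGF and NT-3, with Gins2 at -0.44 there. Within single fluidics runs, 0, 0 and 1 members were higher with EGF, and the medians in run 2 and run 3 were 0.41 and 0.057. The cause was not tested, except that the run values rest on fewer samples.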
